A study of Rattus norvegicus with 20 samples.

Results

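The large intestine pool is 1 small RNA library, made from miRNA combined from 3 male Long Evans rats on postnatal day 35 that had received no treatment. It was 1 of 20 rat libraries. It was set against 13 other pools of the same design and against the mean of 3 brain libraries, each from 1 animal, which gave 15 tissues. By the paper's account, all tissues and the serum came from the same 3 rats. The 3 serum libraries were left out of these comparisons. The pool was then compared directly with the small intestine pool. A pool of 3 animals is a single measurement, so the intervals given here cover counting error only and not the variation between rats, and no test was possible. Levels are RPM, the number of reads scaled to 1000000 reads on the 388 miRNA genes of the RefSeq list. Differences are on the scale of log2(RPM + 1), so 1 is a 2-fold difference and low levels are understated. Of the 388 rows, 265 had at least 10 reads in at least 3 of the 17 tissue libraries, and only these were counted. The 3 brain libraries counted separately in this filter, so a row found only in the brain could pass it.

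miRNAs are short RNAs that pair with messenger RNAs, mostly through bases 2 to 8 (the seed), and lower their translation and stability. The wall of the large intestine holds an absorptive and secretory epithelium, known for miR-192, miR-194, miR-215 and the mir-200 family, with scattered endocrine cells that carry miR-375. It also holds layers of smooth muscle, known for miR-143 and miR-145. The mir-10 and mir-196 genes lie inside the Hox clusters, whose genes are used according to position along the body axis.

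Several miRNAs that were high in the large intestine pool, some of them higher in other tissues, fall into a few seed groups. Their mature sequences in the RefSeq-derived table are shown with the seed in capitals, 5′ to 3′. Members of a group can differ at only 1 or a few bases, and they were counted as separate genes. Of the 388 names, 340 had a mature sequence in that table. The Mir192 hairpin lies at chr1:212994209-212994318 and the Mir215 hairpin at chr13:99382990-99383086, both on the plus strand of GRCr8. Each has a mir-194 copy close by on the same strand, Mir194-2 at 100 bases from Mir192 and Mir194-1 at 191 bases from Mir215. miR-192-5p and miR-215 share their seed, and over 21 aligned bases they differ by C1A, A12U and C20A, counted from the 5′ end with the base of miR-192-5p first.
miR-192-5p: cUGACCUAugaauugacagcc
miR-215: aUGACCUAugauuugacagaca
miR-194-5p, from both copies: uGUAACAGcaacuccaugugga

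The 3 mir-196 genes lie between Hox genes, Mir196a between Hoxc10 and Hoxc9, Mir196b between Hoxa9 and Hoxa10 (chr4:82661101-82661185, minus strand, GRCr8), and Mir196c between Hoxb13 and Hoxb9 (chr10:81727551-81727630, plus strand). Their 5p forms share a seed and differ only at position 12, by A12C from miR-196a to miR-196b, A12G from miR-196a to miR-196c and C12G from miR-196b to miR-196c. Whether a read with a mismatch could be given to the wrong member depends on the alignment setting, which is not given in the sources used here.
miR-196a-5p: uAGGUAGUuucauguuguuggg
miR-196b-5p: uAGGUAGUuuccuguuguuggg
miR-196c-5p: uAGGUAGUuucguguuguuggg

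Mir10a lies between Hoxb5 and Hoxb4, and Mir10b lies within the span of Hoxd4. The listed form of miR-10b-5p starts 2 bases later than that of miR-10a-5p, so the listed seeds differ, although the stretch of the mir-10b hairpin at this place begins with the same bases as miR-10a-5p. Over the 21 bases that align, the listed forms differ by U12A, counted on miR-10a-5p.
miR-10a-5p: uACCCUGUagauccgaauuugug
miR-10b-5p as listed: cCCUGUAGaaccgaauuugugu
mir-10b hairpin at the same place: uACCCUGUagaaccgaauuugugu

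For the epithelial and endocrine miRNAs the following forms are shown. miR-141-3p and miR-200c-3p come from 1 cluster, with 346 bases between their hairpins, and their seeds differ at 1 base.
miR-141-3p: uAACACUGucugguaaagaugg
miR-200c-3p: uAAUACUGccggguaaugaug
miR-375-3p: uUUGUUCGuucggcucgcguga
miR-147: gUGUGCGGaaaugcuucugcua

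The large intestine library was the deepest of the series, with 3774010 RefSeq miRNA reads. The other pools had 157243 to 2326320 reads (median 597071), and the brain libraries had 378054 to 1168115. A level of 3 reads, used as the floor of detection, was 0.795 RPM in the large intestine, 3.31 RPM in the small intestine and up to 19.1 RPM in the shallowest pool. The library labelled pancreas did not carry the markers of its label. Mir122, a hepatocyte miRNA, stood at 16948 RPM there and 16735 RPM in the liver, while Mir216a and Mir217 of the exocrine pancreas had 0 reads in it. Several results that rest on this library are therefore also given without it.

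A few miRNAs made up most of the large intestine library. Mir143 alone held 31.0% of the reads, and the 5 most abundant rows together held 73.9%. In order of reads these 5 were Mir143 (1170000 reads), Mir192 (747726), Mir10b (361641), Mir10a (303664) and Mir215 (205027). Thus a smooth muscle miRNA, a pair of related gut epithelial miRNAs and a pair of Hox cluster miRNAs led the pool. Mir27b (110807 reads), Mirlet7f-1 (105000), Mir375 (67554), Mir21 (66115) and Mir26a (63902) completed the 10 most abundant, which together held 84.8%. In the other 13 pools the 10 most abundant rows held 65.9 to 91.7%. RPM is a share of reads, so a high share of any of these rows lowers the RPM of all others in its library.

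**Figure D1:**
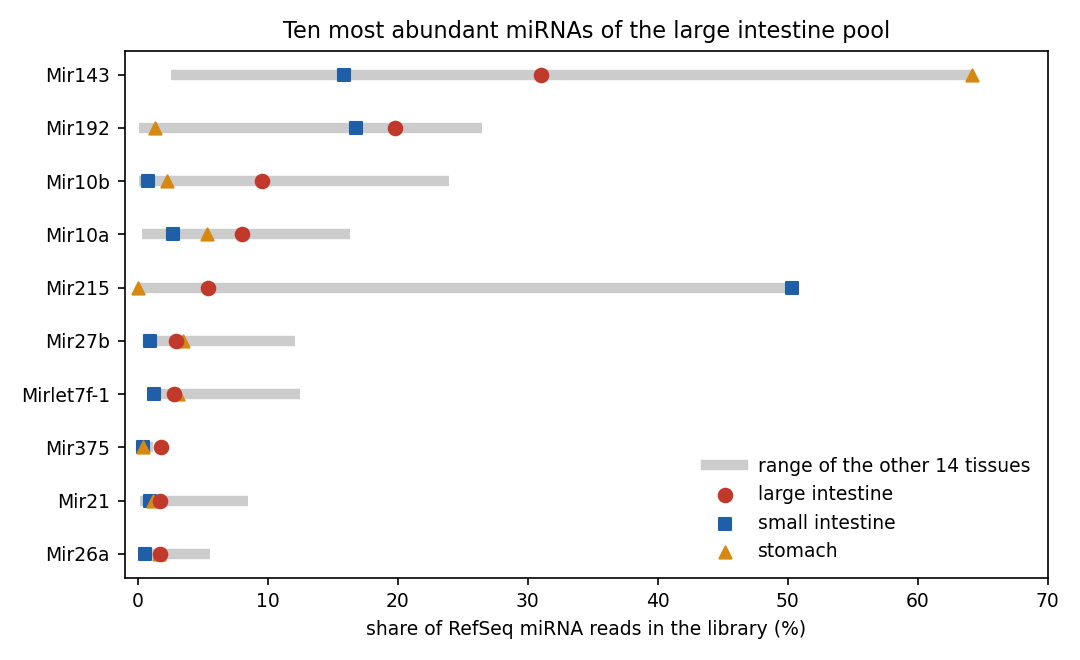
Share of RefSeq miRNA reads (%, horizontal axis) for the 10 most abundant miRNAs of the large intestine pool, with the large intestine as circles, the small intestine as squares, the stomach as triangles and the range of the other 14 tissues as grey bars. Mir143 held 31.0% of the large intestine reads, and Mir215 held 5.43% there against 50.3% in the small intestine.

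Mir143, which with Mir145 is a marker of smooth muscle, was at 310015 RPM in the large intestine (95% interval 309548 to 310482). The value was deposited to 3 significant digits, which allows a further 1325 RPM on either side, more than the counting error. Over the other 14 tissues Mir143 ranged from 25332 ± 2614 RPM in the brain (SD, n = 3) through a median of 133366 RPM to 641549 RPM in the stomach. Only the stomach exceeded the large intestine, and the spleen came next below it at 179844 RPM. The large intestine was 2.32 times the median, a log2 difference of 1.22. Mir145, transcribed from the same locus, was at 787 RPM, second only to the stomach at 1768 RPM, with a log2 difference of 1.50. Both rows of the smooth muscle list were thus at least 2-fold above the median of the other tissues, by RPM (12.8% of all filtered rows) and by TMM (21.5%). Across the 15 tissues Mir145 was the miRNA whose log2 level was most like that of Mir143 (Pearson r = 0.86, a description over tissues that share these libraries), followed by Mir147 at 0.51. Because these are whole tissues, more smooth muscle cells and more miRNA per cell cannot be told apart, and the same holds for every cell type named below.

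Mir192, a miRNA of intestinal, hepatic and renal epithelium, was at 198125 RPM in the large intestine (95% interval 197723 to 198528). The other tissues fell into a high and a low set. The library labelled pancreas (264580 RPM) and the liver (259909 RPM) were above the large intestine, the small intestine (167582 RPM) and the kidney (124139 RPM) were below it, and the stomach had 13530 RPM. The remaining tissues lay between 1240 and 3649 RPM, so the large intestine was 63.7 times the median of 3108 RPM (log2 difference 5.99, or 6.05 without the library labelled pancreas). Its nearest miRNAs over the 15 tissues were Mir194-2 (r = 0.98), Mir194-1 (r = 0.98) and Mir802 (r = 0.89). Mir802 was at 1157.2 RPM in the liver and 1164.5 RPM in the library labelled pancreas. These r values were not computed without that library.

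Mir375, known from endocrine cells of the gut and pancreatic islets, was higher in the large intestine than in any other tissue, at 17900 RPM (95% interval 17766 to 18034). The lung followed at 11822 RPM, the stomach at 4453 RPM, the testes at 4255 RPM and the small intestine at 3804 RPM. The lowest level was 7.30 RPM in the heart and the median was 531 RPM. This median lies between the kidney at 497 RPM and the library labelled pancreas, and is not given without the latter. The large intestine was 33.7 times that median (log2 difference 5.07) and 1.51 times the lung (counting interval 1.49 to 1.54). No miRNA followed Mir375 closely over the tissues, since the best, Mir194-2, reached r = 0.50. Pancreatic islets were not represented in a usable way, because the library labelled pancreas had 565 RPM of Mir375 and lacked the exocrine markers of that organ.

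**Figure D2:**
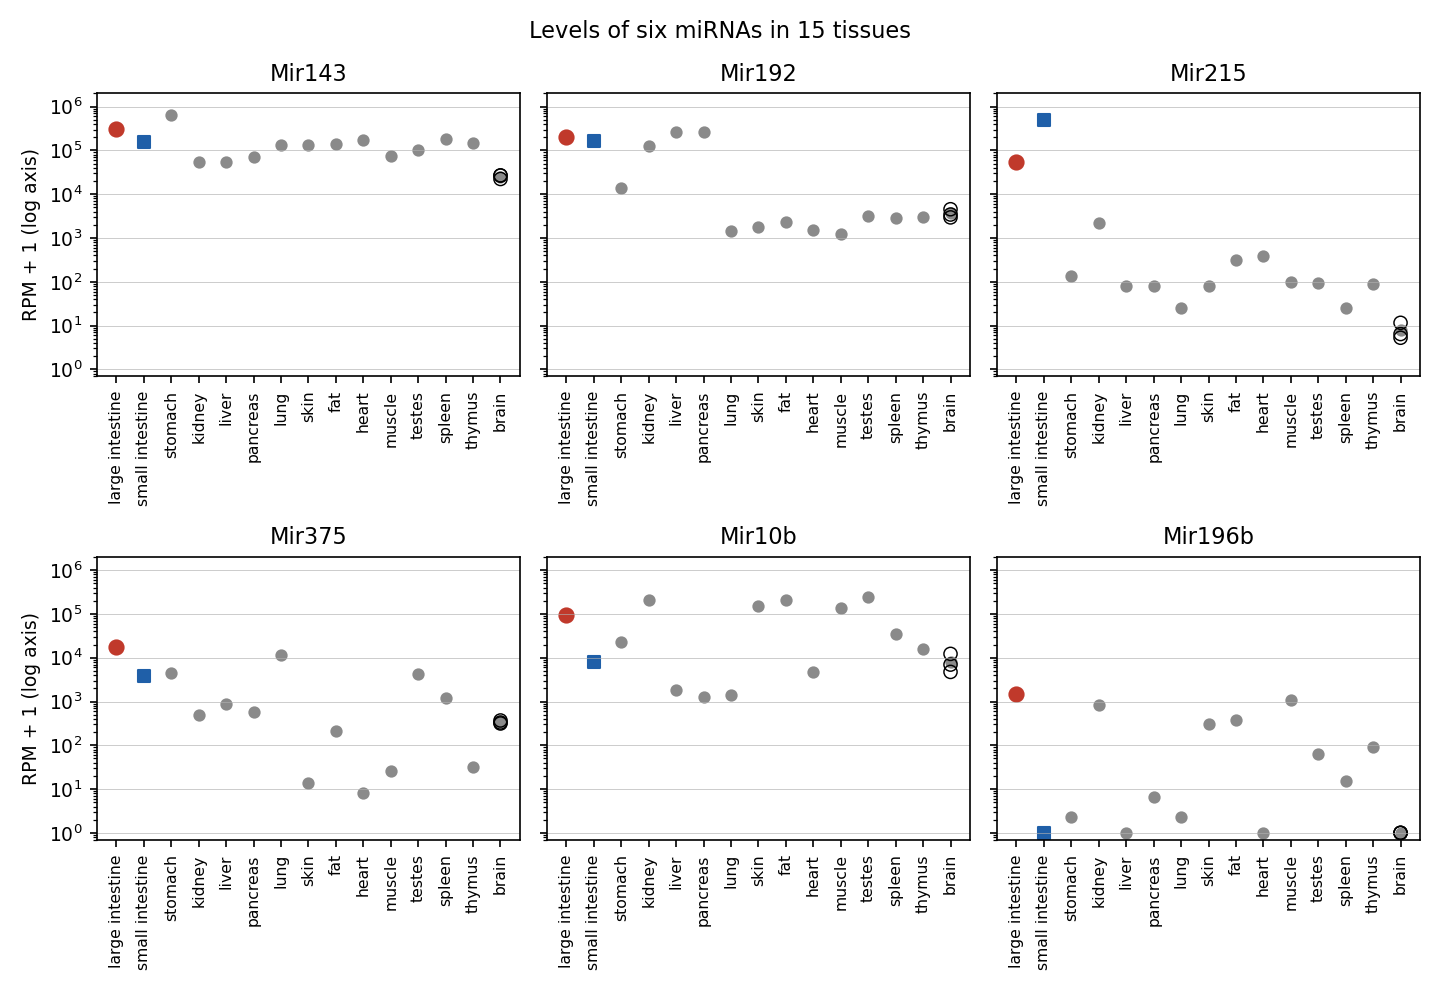
Levels of 6 miRNAs in 15 tissues as RPM + 1 on a log axis, with the large intestine as the large circle, the small intestine as the square, other tissues as grey points and the 3 brain libraries as open circles over their mean. Mir375 and Mir196b were highest in the large intestine, and Mir196b had 0 reads in the small intestine.

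Against the other tissues as a whole, 34 of the 265 filtered rows (12.8%) were at least 2-fold above the median of the other 14, and 100 (37.7%) were at least 2-fold below it. The median difference over all 265 rows was -0.70, in a library where a few rows held most of the reads. With TMM scaling, which sets libraries to the same level over the bulk of miRNAs, the median was 0.18, 57 rows (21.5%) were at least 2-fold above and 15 (5.66%) at least 2-fold below. Differences near these medians therefore change direction with the scaling, among them those of Mir27b (-0.31 by RPM and 0.76 by TMM) and Mir26a (-0.73 and 0.49). Of the other broadly present miRNAs among the 10 most abundant, Mirlet7f-1 was at 27822 RPM against a median of 79538 RPM (-1.52 by RPM and -0.01 by TMM), and Mir21 was at 17518 RPM against 12140 RPM (0.53 and 1.71). Without the library labelled pancreas, 33 rows were above and 109 below. Each list count below was read against these shares.

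Rows of the gut epithelium were among those furthest above the other tissues. Mir215 led with 54326 RPM against a median of 91.7 RPM, a log2 difference of 9.20. It stood at 503409 RPM in the small intestine and at 2182 RPM in the kidney, and no other tissue exceeded 385 RPM. Mir194-1 was at 2732 RPM (log2 difference 6.39) and Mir194-2 at 2905 RPM (5.95). The division of reads between these copies is uncertain because their mature sequence is the same. All 4 rows of the absorptive gut epithelium list were thus at least 2-fold above the median of the other tissues. Their median difference was 6.19, beside -0.70 over all rows. None of them was highest in the large intestine, since each was exceeded by the small intestine, the liver or the library labelled pancreas.

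The mir-200 family, which maintains epithelial identity, was measured on 5 rows. All 5 were at least 2-fold above the median of the other tissues, with a median difference of 3.29. Mir141 was at 5085 RPM (log2 difference 3.66), ahead of the skin at 4012 RPM and the thymus at 3636 RPM. Mir200b was at 4516 RPM, ahead of the small intestine at 2003 RPM. Mir429 was at 3193 RPM and Mir200a at 2166 RPM, and the next tissue for both was the brain, with 1439 ± 402 and 957 ± 130 RPM (SD, n = 3). These 4 rows were highest in the large intestine. The differences of Mir141 and Mir429 moved with the tissues compared, to 2.85 and 2.66 without the library labelled pancreas and to 4.46 and 4.05 without the small intestine. Mir200c was at 111 RPM and by RPM did not differ from the small intestine at 113 RPM beyond counting error (ratio 0.987, interval 0.793 to 1.24). This rests on totals that include Mir215. With Mir215 removed the totals were 3568983 and 450067 reads, and its 419 against 102 reads then put it lower in the large intestine.

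In all, 7 of the 265 rows (2.64%) were highest in the large intestine: Mir375, Mir141, Mir200b, Mir429, Mir200a, Mir196b and Mir147. With TMM scaling there were 8 (3.02%), these and Mir26a, which ranked 13 of 15 by RPM. The lead was often narrow by RPM, and its size depends on the scaling. It was 1.27 times the skin for Mir141 (interval 1.22 to 1.32) and 1.31 times the muscle for Mir196b (interval 1.23 to 1.40). Mir147, known from activated macrophages, was at 120 RPM (452 reads) and 2.05 times the spleen, where only 12 reads were counted (interval 1.16 to 3.99). With the small intestine left out of the comparison, Mir215, Mir194-1, Mir194-2 and Mir200c joined the list, making 11. Of these 4, Mir194-2 and Mir200c then led their next tissue by less than the counting error.

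The Hox cluster miRNAs differed widely between tissues. Mir196b was at 1451 RPM in the large intestine (5475 reads), followed by muscle at 1105 RPM, kidney at 817 RPM, fat at 374 RPM and skin at 298 RPM. Thymus and testes had 92.8 and 63.6 RPM, and no other tissue had over 15 RPM. The small intestine, the liver, the heart and the 3 brain libraries had 0 reads, which allowed up to 3.31 RPM in the small intestine. The log2 difference from the median of 10.1 RPM was 7.15. This median lies between the library labelled pancreas, with 1 read, and the spleen, with 3 reads, and without the library labelled pancreas the difference was 6.54, below that of Mir194-1 (6.65). It was also 6.54 without the small intestine. The miRBase precursor list gave 3607 reads for its 2 mir-196b copies together, fewer than the RefSeq row, whereas 318 of 321 rows with a precursor of the same number agreed within 0.5 reads. The division of reads in this family is therefore uncertain.

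Mir196c had 1378 reads (365 RPM) in the large intestine and was close to absent elsewhere, with 33 reads in skin, 7 in kidney, 5 in fat, 4 in muscle, 1 in testes and 0 in the other tissues. It did not pass the filter, which asks for 10 reads in 3 libraries, and so it is in none of the counts. Its level was 7.87 times that in skin (interval 5.58 to 11.5). Mir196a had only 14 reads (3.71 RPM), against 1261 RPM in muscle and 1056 RPM in fat. The 3 members with the same seed thus had different tissue orders, and Mir196b exceeded Mir196c by 3.97 reads to 1 in the large intestine (interval 3.74 to 4.22) and by 313 to 1 in muscle (interval 122 to 1151).

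Mir10b was at 95824 RPM in the large intestine and Mir10a at 80462 RPM, with log2 differences of 2.33 and 1.44. The large intestine ranked 6 of 15 for Mir10b, below testes (239184 RPM) and fat (206757 RPM) among others, and 3 of 15 for Mir10a, below kidney (163188 RPM) and lung (94703 RPM). All 4 Hox cluster rows that passed the filter counted as at least 2-fold above the median of the other tissues. For Mir196a this rests on a median of 1.07 RPM, under the 3-read floor of each of the other pools, and 6 tissues were above the large intestine, so only the other 3 rows carry the count. Mir10b and Mir10a had similar read numbers in the large intestine (ratio 1.19, interval 1.19 to 1.20), whereas the ratio ran from 0.0148 in lung to 66.4 in testes.

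**Figure D3:**
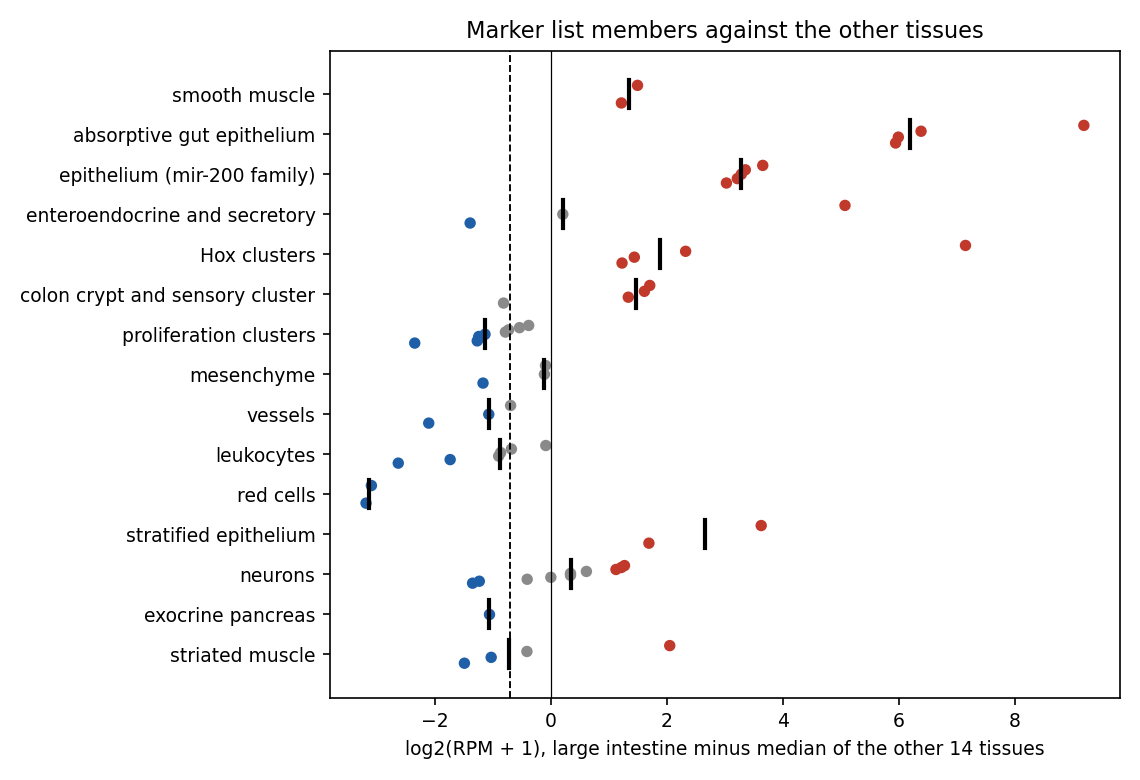
Difference in log2(RPM + 1) between the large intestine and the median of the other 14 tissues, 1 point per miRNA that passed the filter, grouped by marker list, with a short vertical line at each list's median and a dashed line at -0.70, the median of all 265 rows. The 4 gut epithelium rows lie between 5.95 and 9.20, Mir196b of the Hox list is at 7.15, Mir375 at 5.07, the mir-200 rows lie between 3.03 and 3.66, and the red cell rows are at -3.19 and -3.10.

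Other marker lists described the rest of the wall. Of 4 rows in the colon crypt and sensory cluster list, 3 were at least 2-fold above the median of the other tissues. Mir182 led them at 9313 RPM (log2 difference 1.71, rank 4 of 15, with 43039 RPM in the brain). Mir31 was the exception at 81.7 RPM and -0.82. Mir205 (149 RPM, 3.63) and Mir203 (1641 RPM, 1.69), which mark stratified epithelium, were both at least 2-fold above the median, but skin had 9662 RPM of Mir205 and 42631 RPM of Mir203. The difference of Mir205 was 3.01 without the library labelled pancreas and 4.25 without the small intestine. Mir490 was at 43.2 RPM (3.79), below heart, stomach and brain. Mir7a-1 and Mir7a-2 of the secretory list had 6 and 4 reads and Mir7b had 0, so Mir375 alone carried that list.

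Both red cell rows were at least 2-fold lower by RPM and by TMM, whereas the medians of the leukocyte and proliferation lists depended on the scaling. Mir451 and Mir144, which mark red cells, had 3 and 6 reads, against medians of 15.4 and 21.2 RPM in the other tissues (log2 differences -3.19 and -3.10), and the spleen had 6272 and 7067 RPM. None of the 6 leukocyte rows was at least 2-fold above the median of the other tissues. At least 2-fold below it were 2, Mir150 at 35.0 RPM (-2.63) and Mir146a at 825 RPM (-1.74). The leukocyte median was -0.88 by RPM and 0.33 by TMM, so only Mir150 kept a 2-fold lower level under both. Of 9 rows from the mir-17 and mir-106b clusters, which are used in dividing cells, 5 were at least 2-fold below and none above. Mir92a1 was the lowest of them at 1114 RPM against a median of 5720 RPM (-2.35 by RPM, -1.06 by TMM). The list's median was -1.14 by RPM, near the -0.70 of all rows, and -0.01 by TMM.

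The 3 vessel rows had a median of -1.07 by RPM and 0.22 by TMM. Mir126, the miRNA of endothelial cells, was at 3029 RPM against a median of 13051 RPM (-2.11 by RPM and -0.46 by TMM). The 3 mesenchyme rows had a median of -0.11 by RPM and 0.80 by TMM, with Mir22 at 16248 RPM (-1.17). Mir199a2, at 1714 RPM, is not among these 3 because the list spelled its name differently. Neither list had the same direction under both scalings. The other rows furthest below the other tissues were Mir99a at 68.1 RPM (-3.05), Mir542 at 48.0 RPM (-2.56), Mir450a at 93.0 RPM (-2.50), Mir34a at 6.09 RPM (-2.28), Mir351 at 198 RPM (-2.20) and Mir184 at 3.71 RPM (-2.13). Mir542, Mir450a and Mir351 are neighbours on the X chromosome, and muscle or skin was highest for each. By TMM the differences of these 6 ranged from -1.85 to -0.73.

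Markers of liver and exocrine pancreas were under the floor of 3 reads, whereas some neuronal and striated muscle rows were above it. Mir122 of hepatocytes had 1 read, and the 3 exocrine pancreas rows together had 1 read. The 3 Mir124 copies of neurons had 1, 2 and 1 reads, whereas the Mir9 copies had 78 to 85 reads. Mir133a, the striated muscle miRNA, had 826 reads (219 RPM, log2 difference 2.05), against 76578 RPM in the muscle pool and 28668 RPM in the heart. Mir206 had 0 reads, and Mir208a and Mir208b had 1 and 2. Counted as lists, 3 of the 10 neuron rows were at least 2-fold above the median of the other tissues (the Mir9 copies, all under 23 RPM). The Mir9 copies also had near-equal reads in brain library 1 (15031, 15239 and 14934), so they are not taken as 3 separate measurements. At least 2-fold below the median were 2 neuron rows (Mir128-1 at -1.35 and Mir128-2 at -1.23). Of the 4 striated muscle rows that passed the filter, 1 was above (Mir133a) and 2 below. The summed level of the striated muscle list was 231 RPM, against 14.6 to 78524 RPM (median 104) in the other tissues, and that of the stratified epithelium list was 1790 RPM, against 32.0 to 52293 RPM (median 511). The part of these cell types in the results was not tested.

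By the whole profile over 265 rows, the small intestine was most like the large intestine (r = 0.96 and rho = 0.94, computed over miRNAs, so the points do not stand for replicates). The stomach followed at r = 0.94 and the kidney at 0.92, and the muscle (0.74) and the brain (0.62) were least like it. Without Mir215 the small intestine was at 0.95 and the stomach also at 0.95.

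The direct comparison of the large with the small intestine asks how miRNAs differ along the gut. It depended on Mir215, which held 50.3% of the small intestine reads and 5.43% of the large intestine reads, and which has a row in only 1 of the 3 annotations. By RPM, 88 of 265 rows (33.2%) were at least 2-fold higher in the large intestine and 22 (8.3%) at least 2-fold lower, with a median difference of 0.61. With Mir215 removed from both totals, 25 of 264 rows (9.47%) were higher and 58 (22%) lower, with a median of -0.04. TMM scaling gave 48 higher and 46 lower. The direction of the majority was therefore set by 1 row.

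**Figure D4:**
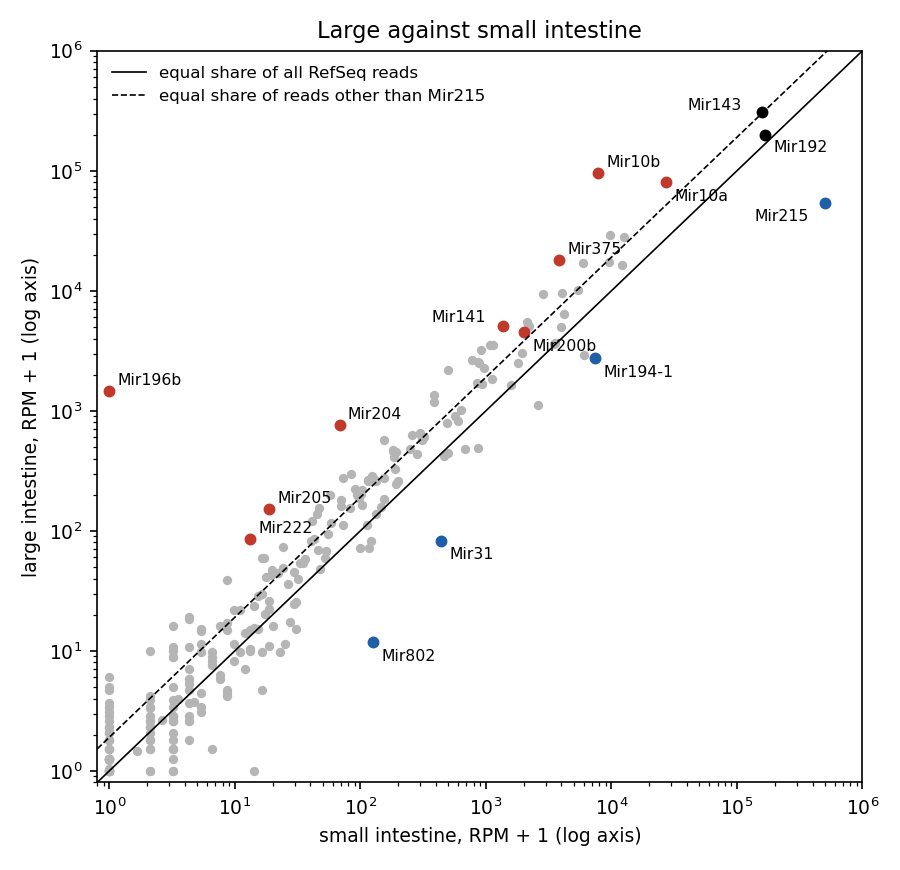
Level of each filtered miRNA in the large intestine (vertical) against the small intestine (horizontal), as RPM + 1 on log axes. The solid line marks equal RPM and the dashed line equal RPM with Mir215 removed from both totals. Mir10b, Mir204 and Mir196b lie above both lines, and Mir215, Mir31 and Mir802 lie below both.

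Mir215 itself had 205027 reads in the large and 456246 in the small intestine, and was 9.27 times lower in the large intestine by RPM (interval 9.22 to 9.31, log2 difference -3.21). The ratio to its seed partner needs no total. There were 0.274 reads of Mir215 per read of Mir192 in the large intestine (interval 0.273 to 0.276) and 3.00 in the small intestine (interval 2.99 to 3.02). The order of these miRNAs was thus opposite in the 2 parts of the gut. The kidney, with much Mir192, had a ratio of 0.0176, and the liver had 0.000307. Together Mir215 and Mir194-1 held 5.71% of the large and 51.1% of the small intestine reads, and Mir192 and Mir194-2 held 20.1% and 17.4%. Mir192 by itself was 1.18 times higher in the large intestine (log2 difference 0.24), but lower with Mir215 removed (-0.69) and by TMM (-0.42), so its direction was not settled.

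The other rows lower in the large intestine included Mir802, a miRNA of liver and gut epithelium, with 41 reads (10.9 RPM) against 113 (125 RPM). It was 11.5 times lower (interval 7.96 to 16.8) and its log2 difference was -3.41 with and -4.34 without Mir215 in the totals. Mir31 was at 81.7 against 437 RPM (-2.40 and -3.33). Mir194-1 was at 2732 against 7447 RPM (-1.45 and -2.38), Mir194-2 at 2905 against 6062 RPM (-1.06 and -1.99) and Mir92a1 at 1114 against 2609 RPM (-1.23 and -2.16). These 5 were at least 2-fold lower under both totals. Among rows with at least 30 reads in the small intestine, Mir423, Mir19b1, Mir320a and Mir142 came next, with differences from -0.81 to -0.51 by RPM, and were at least 2-fold lower only with Mir215 removed (-1.73 to -1.44).

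Among the rows higher in the large intestine, Mir196b led with 5475 reads against 0, at least 438-fold higher when the small intestine is set to the floor of 3 reads (at least 230-fold with Mir215 removed). Mir196c had 1378 reads against 0 and was at least 110-fold higher (at least 57.9-fold with Mir215 removed). These were the only 2 RefSeq rows with 0 reads in the small and at least 30 in the large intestine, and no row showed the opposite. The small intestine library was shallower, with 906313 RefSeq reads against 3774010, so the same read limits stand for unlike levels in RPM. Mir10b was 12.2 times higher (95824 against 7875 RPM, interval 11.9 to 12.5), while its Hox cluster relative Mir10a was 2.94 times higher (80462 against 27352 RPM, interval 2.90 to 2.98). With Mir215 removed the log2 differences were 2.68 for Mir10b and 0.63 for Mir10a. Free of any total, there were 1.19 reads of Mir10b per read of Mir10a in the large intestine and 0.288 in the small intestine (interval 0.280 to 0.296). Mir196a, with 14 reads against 0, was only 1.12 times the floor of 3 reads in the small intestine (0.588 with Mir215 removed), so no difference was detectable for it at this depth. On the log2(RPM + 1) scale all 4 filtered Hox cluster rows counted as at least 2-fold higher, and 3 with Mir215 removed, both counts including Mir196a.

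Mir204 had 2843 reads (753 RPM) against 61 (67.3 RPM) and was 11.2 times higher (interval 8.69 to 14.7). Mir205 had 564 against 16 reads and was 8.47 times higher (interval 5.17 to 14.9). Mir222 had 320 against 11 reads and was 6.99 times higher (interval 3.85 to 14.1). With Mir215 removed their log2 differences were 2.55, 2.12 and 1.83. Mir488, Mir499, Mir410 and Mir298 also ranked among the 10 largest, but rested on 1 to 7 reads in the small intestine. The lower bounds of their ratios were 1.81, 1.37, 2.32 and 1.79 by RPM, and 0.9504, 0.7193, 1.2185 and 0.9376 with Mir215 removed, so Mir410 alone of these 4 then stayed higher beyond counting error.

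Mir375 was at 17900 against 3804 RPM, 4.71 times higher in the large intestine (interval 4.55 to 4.87, log2 difference 2.23, and 1.31 with Mir215 removed). Per read of Mir192 there were 0.0903 reads of Mir375 in the large and 0.0227 in the small intestine, and 0.329 in the stomach. Mir143 was 1.95 times higher by RPM (interval 1.94 to 1.96), but level with the small intestine when Mir215 was removed (log2 difference 0.03). Of the mir-200 family, Mir141, Mir200a, Mir200b and Mir429 were at least 2-fold higher by RPM (2.26 to 4.37 times), and of these only Mir200a was so with Mir215 removed (log2 difference 1.20). Mir182 was 3.27 times higher by RPM, with a log2 difference of 0.78 when Mir215 was removed.

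The mature rows of the same library were compared with the precursor rows, since both count the same reads. Mature rows held 98.3% of the mir-143 precursor reads, 94.0% of mir-375, 79.2% of mir-192, 78.8% of mir-194 and 87.1% of mir-10a. They held 43.3% of mir-196b, 12.9% of mir-145 and 0.513% of mir-10b. For mir-10b the share was low in every tissue library (0.409 to 2.68% over 17), so the level of its listed mature form does not represent that of the gene. mir-204 had 14.7% on its mature row, against 14.6 to 80.9% in the 10 tissue libraries with at least 100 precursor reads. The choice of arm was clear where the mature rows held most reads, with 592469 reads on miR-192-5p and 20 on its 3p arm, 264256 and 122 for miR-10a, and 24 and 18099 for miR-141.

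**Figure D5:**
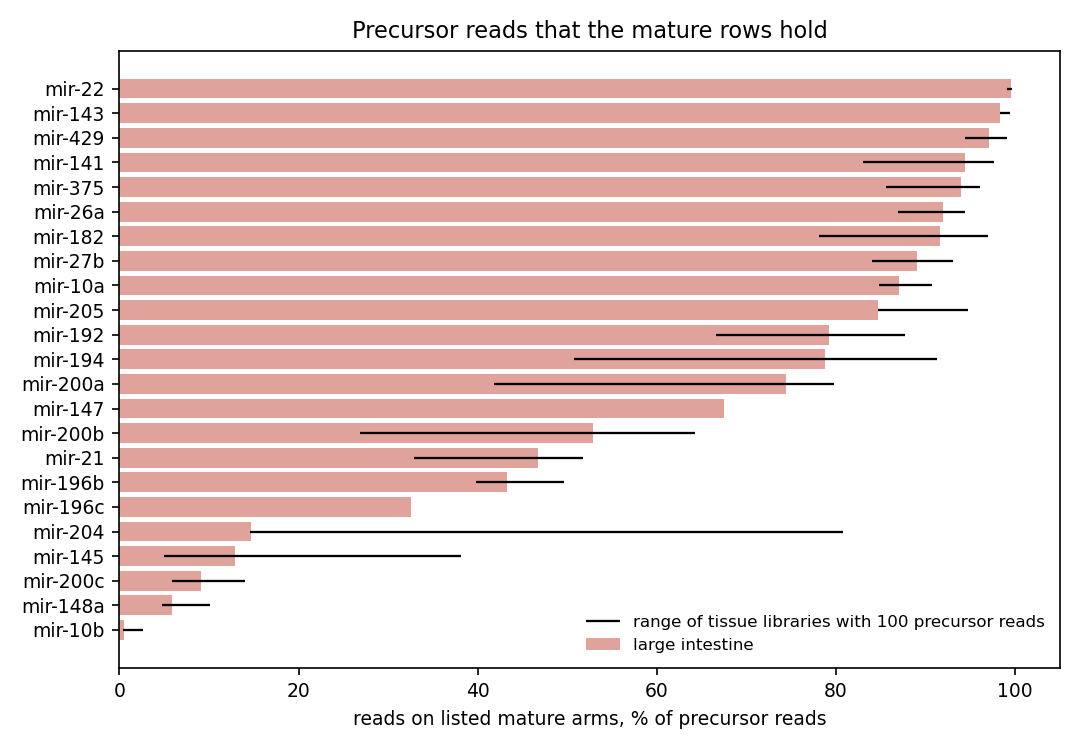
Reads on the listed mature arms as a percentage of precursor reads in the large intestine (bars, from 0), with black lines for the range over tissue libraries with at least 100 precursor reads. The share was 98.3% for mir-143 and 0.513% for mir-10b.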

How the data were processed

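Small RNA libraries of 20 rat samples were analysed, 14 tissue pools of 3 rats, 3 brain hemispheres and 3 serum samples. The authors kept tissues in RNAlater, extracted RNA with miRNeasy kits, prepared TruSeq Small RNA libraries and sequenced them on a MiSeq. They trimmed bases under a Phred score of 20, used Bowtie for alignment to Rn5, and counted miRNAs in Partek software. Tool versions and the mismatch setting are not given in the sources used here. The deposited files hold estimated counts (expected counts) per miRNA as the authors' software gave them, without normalization, in 3 stacked annotations of 388 RefSeq, 444 miRBase precursor and 577 miRBase mature rows (release 21). Mir143, its precursor and miR-143-3p were deposited to 3 significant digits in the large intestine file.

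RPM were computed from the RefSeq rows within each library, with and without Mir215. Rows with at least 10 reads in at least 3 tissue libraries were kept, the 3 brain libraries were averaged, and log2(RPM + 1) in the large intestine was set against the median of the other 14 tissues and against the small intestine. Rows at a fold of 2 or more were counted. With 1 large intestine library there is no test. Intervals are Clopper-Pearson intervals at 95%, for ratios from the split of reads between libraries, and they and the floor of 3 reads cover counting error only. The depth of 3774010 reads makes this library more precise than the others. TMM factors came from edgeR 4.0.16 and size factors from DESeq2 1.42.0 in R 4.3.3, used for scaling only. Python 3.11.15, NumPy 2.4.6, pandas 2.3.3, SciPy 1.17.1 and Matplotlib 3.10.9 were used. The counting procedure was tested on simulated data.

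Named miRNAs were the 3 markers Mir143, Mir192 and Mir375, the members of 16 marker lists (70 measured rows, of which 62 passed the filter), the 10 most abundant, the 10 with the largest and the 10 with the smallest difference in each comparison (at least 30 reads), all rows highest in the large intestine, and the 3 most like each marker. Names outside this rule were chosen after their values were seen. The members and lists were chosen with earlier results of these data known. Alternatives covered the scaling, pseudocount, filter, annotation, fold, reference level and left-out libraries. Hairpin coordinates and sequences are those of RefSeq on GRCr8, not Rn5. Of the 388 symbols, 359 were current in its gene table. The other experiments of the study were not analysed here.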

Additional observations from a re-analysis of the deposited data

Results flagged for a closer look

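Serum, which was left out of the comparisons, was examined for the 13 rows that were among the 10 largest differences from the other tissues or highest in the large intestine. Of these, 3 had over 3 reads in each serum library. Of all 388 RefSeq rows, 78, 85 and 85 had at least 3 reads, a lower limit, in serum libraries 1, 2 and 3. The 3 of 13 are therefore not read as more than the share of all rows. A level of 3 reads was 359, 273 and 370 RPM in these libraries. Mir147, Mir205 and Mir490, at 120, 149 and 43.2 RPM in the large intestine, would lie under it at the same level in serum. Mir215 was at 133676, 49095 and 74152 RPM in the 3 serum libraries (mean 85641 ± 43445, SD, n = 3), from 1117, 540 and 601 reads. It was at 54326 RPM in the large intestine and 503409 RPM in the small intestine. Mir192 had a serum mean of 18379 ± 5350 RPM (SD, n = 3), beside 198125 RPM in the large intestine and 259909 RPM in the liver. Mir375 had a serum mean of 720 ± 266 RPM (SD, n = 3), from 5 to 8 reads a library. The serum libraries had 8105 to 10999 reads, and the source of these reads was not tested.

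Of the 10 most abundant precursors in the large intestine, 1 had no RefSeq row and so is in none of the counts above. This was mir-148a, at 17956 RPM of precursor reads (66180 reads, rank 8). It was at 18510 RPM in the small intestine and at a median of 18629 RPM in the other tissues, so the large intestine was level with them (log2 difference -0.05).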

How the results depend on the processing

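The counts of rows past a 2-fold difference depended on the scaling, whereas the larger named differences from the other tissues kept their direction. Of the 30 named differences from the other tissues and 22 from the small intestine, 0 that were 2-fold or more changed sign. Against the small intestine this outcome was fixed for the scalings. Each of them changed all ratios by a common factor of under 2-fold, so no conclusion is drawn there. The 483 alternative values also cover differences under 2-fold, whose changes of sign were not counted. Among them, Mir27b went from -0.31 by RPM to 0.76 by TMM, and Mir26a from -0.73 to 0.49. A kept sign was not a kept size, since Mirlet7f-1 went from -1.52 by RPM to -0.01 by TMM. A change of pseudocount could not alter a sign against the small intestine, so those values bear on size only. Against the small intestine (88 rows higher and 22 lower by RPM) the counts were 25 and 58 without Mir215, 30 and 58 on the precursor annotation, which has no row for Mir215, 48 and 46 by TMM, and 58 and 41 by DESeq2 size factors. Against the other tissues (34 rows above and 100 below) they were 57 and 15 by TMM and 59 and 15 by DESeq2 size factors. A pseudocount of 0.1 RPM gave 54 above. A pseudocount of 10 RPM gave 59 below, and 57 higher and 7 lower than the small intestine. A fold of 4 gave 18 above and 14 below, and 15 higher and 5 lower than the small intestine. Without the filter, 11 rows were highest in the large intestine (against 7) and 34 were lower than in the small intestine. The rows added to the highest were Mir196c with 1378 reads, and Mir6334, Mir3473 and Mir632 with only 3, 1 and 1 reads. Leaving out the small intestine pool also gave 11 highest. Leaving out each brain replicate gave 34 above, 98 to 99 below and 7 highest. The similarity to the small intestine was 0.9392 as a rank correlation and 0.9577 as Pearson r. No paired analysis was possible because the large intestine is 1 library. Depth limits the small intestine more than the large, since 190 rows reached 3 reads there and 250 in the large intestine.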
